A study of Homo sapiens with 28 samples.

Results

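The comparison set AN3CA cells expressing the delIDR1 truncation mutant of ARID1A (2 libraries) against AN3CA cells expressing DBDmut, an ARID domain mutant of ARID1A (2 libraries), which are 4 of the 28 libraries of polyadenylated RNA in the series. AN3CA is a human endometrial carcinoma line. The 4 libraries were chosen by construct and because their reads divide between the strands alike. Other libraries of that strand profile served to place both mutants: cells expressing wild-type ARID1A (WT, 2 libraries), cells with the empty vector (replicates 1 and 2 of 4) and cells expressing the CBR truncation mutant (2 libraries). All groups were the same line with no treatment, per the labels. The labels do not say how a construct was delivered, which promoter drove it, or whether a line is 1 clone, nor what sets replicates apart. If they are not separate cultures, the p-values reflect technical spread alone.

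ARID1A is a large subunit of the canonical BAF complex (cBAF), which uses ATP to slide or evict nucleosomes and holds enhancers open. Its ARID domain binds DNA with little sequence preference, and its N-terminal part contains a long intrinsically disordered region (IDR1) of low complexity that can take part in weak multivalent contacts and condensates. The C-terminal part contacts the core of the complex. The comparison therefore sets loss of the first disordered region against mutation of the DNA-binding domain within the same protein.

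The 4 libraries held 20.8 and 20.2 M reads on genes in delIDR1 cells and 21.3 and 22.1 M in DBDmut cells (16.6 to 27.9 M over the 28 libraries). Levels are given as CPM, reads of a gene scaled to a fixed total of reads on tested genes. Each library's total was first multiplied by its TMM factor, given below, so CPM values depend on that scaling too. Antisense-oriented reads, those opposite in strand to their gene, made up 85.7 and 84.9% in delIDR1 cells and 87.6 and 87.3% in DBDmut cells, against 96.7 to 98.6% in the 18 libraries of the other profile. Of reads on a gene, on no feature or ambiguous between genes, 25.6 and 26.8% fell on no feature in delIDR1 cells and 21.9 and 23.0% in DBDmut cells. The factor that scales library totals to each other (TMM) was 1.10 in both delIDR1 libraries and 0.978 and 0.982 in the DBDmut libraries, so library composition moved with the construct, and its part in the results was not tested. The line's marker VIM was read at 2554 to 4482 CPM and HOXA10 at 8.27 to 13.3 CPM over the 8 libraries of delIDR1, DBDmut, WT and the vector, whereas PAX8 had 0 to 5 reads and the epithelial keratins KRT8 and KRT18 were at 0.629 to 5.91 and 11.7 to 46.1 CPM. The 12 markers of leukocytes, endothelium and blood in the same check had 0 to 8 reads per library, and CD3E, HBB and HBA1 had none.

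ARID1A RNA, which includes the construct and the cell's own transcript, was above the vector in both mutants. It stood at 597 and 581 CPM in delIDR1 cells and 636 and 694 CPM in DBDmut cells, with 702 and 764 CPM in WT cells and 272 and 296 CPM with the vector. The mutants' libraries did not overlap, but the difference did not pass the test (log2 fold change -0.18 ± 0.0816 SE, adjusted p = 0.0682 in edgeR's quasi-likelihood test). It passed under 5 alternatives: the fit of the compared groups alone (-0.15, adjusted p = 0.00731), the 10 libraries of the strand profile (-0.14, adjusted p = 0.0126), the same libraries with a replicate block (-0.14, adjusted p = 0.00515), no filter on low counts (-0.20, adjusted p = 0.000583) and without DBDmut replicate 1 (-0.24, adjusted p = 0.0456). Therefore no equality of the 2 levels is claimed. Gene-level counts show neither the deletion nor the mutation, and a shorter transcript can give fewer reads per molecule. ARID1B, the alternative subunit, stood at 67.3 and 67.4 CPM in delIDR1 cells and 72.5 and 72.4 CPM in DBDmut cells (-0.11 ± 0.0737, adjusted p = 0.224).

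The mutants differed in the RNA of many genes. Of 14220 genes tested, 3801 were higher in delIDR1 cells than in DBDmut cells (26.7%) and 4464 were lower (31.4%) at an adjusted p under 0.05. Counts of gene list members given below are to be read against these shares. A difference of at least 2-fold was found for 620 genes in the higher direction (4.36%) and 539 in the lower direction (3.79%), and the median log2 fold change of all genes was -0.02. With library totals in place of TMM the same calls numbered 5730 higher and 2906 lower, and the median of all genes moves by 0.168 on the log2 scale. Differences smaller than that shift depend on the scaling.

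**Figure D1:**
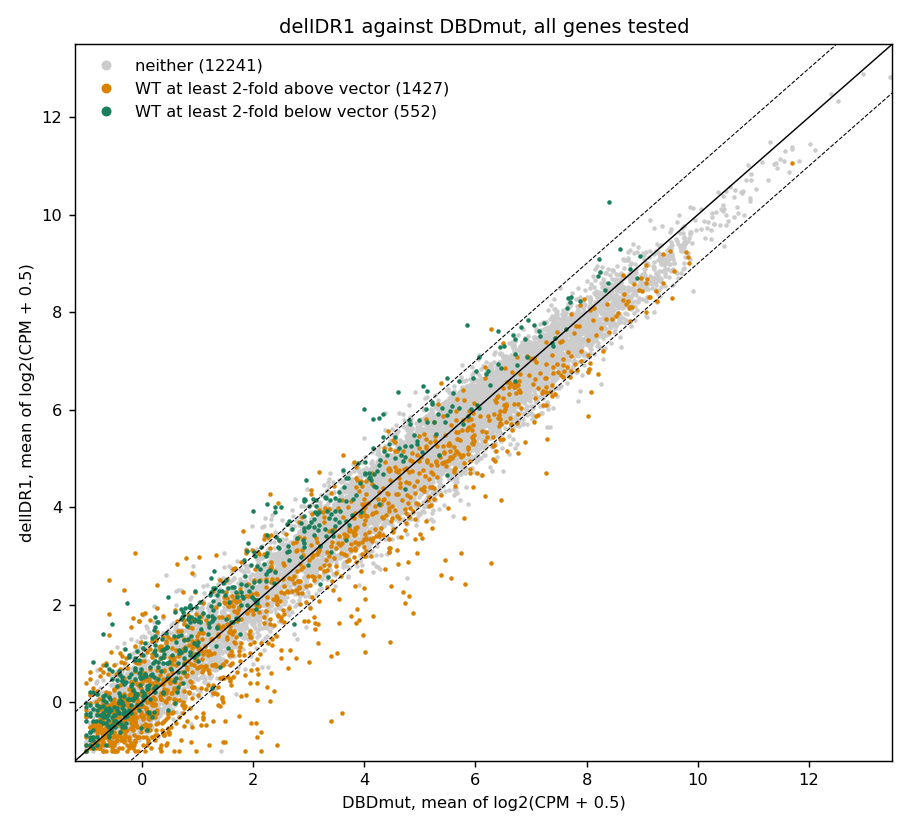
Mean of log2(CPM + 0.5) per gene in delIDR1 cells (vertical) against DBDmut cells (horizontal) for the 14220 genes tested, n = 2 libraries each; the solid line marks equal levels and dashed lines a 2-fold difference. Genes that WT raised at least 2-fold over the vector (orange, 1427) lie more often below the line, and genes that WT lowered (green, 552) lie mostly above it.

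Falls in delIDR1 cells relative to DBDmut cells were named by a rule that took the 12 largest, leaving out genes whose log2 CPM averaged under 1: PLAC8, CACNG4, RGS4, AMIGO2, PLK2, SLITRK6, PRSS23, NEDD9, ACTA2, TAGLN, FHL2 and RGS5. PLAC8, which encodes a small cysteine-rich protein, had 0.262 and 0.270 CPM in delIDR1 cells and 9.79 and 10.2 CPM in DBDmut cells (-5.21 ± 0.226, adjusted p = 5.03e-16). PLK2, a polo-like kinase, had 6.37 and 7.14 CPM in delIDR1 cells against 75.8 and 78.7 CPM in DBDmut cells (-3.51 ± 0.077, adjusted p = 1.58e-21). RGS4, a regulator of G protein signalling, had 0.349 and 0.359 CPM in delIDR1 cells against 11.2 and 12.04 CPM in DBDmut cells (-5.02 ± 0.239, adjusted p = 2.91e-15). For each of these genes the delIDR1 libraries lay close to the vector libraries (0.227 and 0.405 CPM for PLAC8, 4.58 and 4.36 for PLK2, 0.272 and 0.360 for RGS4), far below both DBDmut libraries.

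CACNG4, an auxiliary subunit of calcium channels and glutamate receptors, rests on 3 reads in delIDR1 cells and 99 in DBDmut cells, a ratio of 35.1 with a 95% counting interval of 11.7 to 173. PRSS23, a serine protease, had 5.11 and 4.63 CPM in delIDR1 cells and 55.8 and 55.2 CPM in DBDmut cells, and NEDD9, a focal adhesion scaffold, 1.31 and 1.797 CPM against 16.0 and 15.1 CPM. SLITRK6, a neuronal transmembrane protein, had 2.31 and 1.48 CPM in delIDR1 cells and 19.3 and 24.1 CPM in DBDmut cells. In none of the 12 did a delIDR1 library reach a DBDmut library, which the rule required. All 12 were among the genes that WT raised at least 2-fold over the vector. The rule's average spans all 28 libraries, so a gene nearly absent in delIDR1 cells passed only through other groups where it was high. The choice thus leans towards genes that WT raised. Of all 539 genes at least 2-fold lower, 282 were raised by WT.

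The 12 largest rises were SUSD2, FAM167A, MYOM2, SAMD9L, ISLR, SLC17A7, LAMP3, CCPG1, GPRC5C, FCGBP, GRIN2D and TRIB3, with log2 fold changes of 1.89 to 2.57. SUSD2, a membrane protein used to mark endometrial mesenchymal cells, had 7.51 and 7.05 CPM in delIDR1 cells and 1.248 and 1.20 CPM in DBDmut cells (2.57 ± 0.179, adjusted p = 4.24e-12). CCPG1, a receptor for autophagy of the endoplasmic reticulum, had 63.7 and 65.3 CPM in delIDR1 cells and 13.8 and 17.5 CPM in DBDmut cells (2.04 ± 0.105, adjusted p = 1.31e-14). SLC17A7, a vesicular glutamate transporter, had 18.2 and 19.2 CPM in delIDR1 cells and 4.42 and 4.43 CPM in DBDmut cells (2.08 ± 0.112, adjusted p = 3.29e-14). These genes differ in where the vector lay: SUSD2 had 16.3 and 18.2 CPM with WT and 0.227 and 0.360 CPM with the vector, whereas CCPG1 had 18.6 and 16.9 CPM with WT and 106 and 114 CPM with the vector.

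LAMP3, a lysosomal membrane protein induced in the unfolded protein response, had 14.5 and 14.7 CPM in delIDR1 cells and 3.74 and 3.23 CPM in DBDmut cells, with 37.1 and 42.2 CPM in the vector. ISLR, a secreted leucine-rich repeat protein of stromal cells, had 2.53 and 2.88 CPM in delIDR1 cells and 0.624 and 0.600 CPM in DBDmut cells, with no read in the vector libraries. SAMD9L, an interferon-inducible growth suppressor, had 4.10 and 3.86 CPM in delIDR1 cells and 0.912 and 0.876 CPM in DBDmut cells, with 4.67 and 4.72 CPM in the vector. Of the 12, 5 were raised by WT at least 2-fold over the vector and 4 were lowered.

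**Figure D2:**
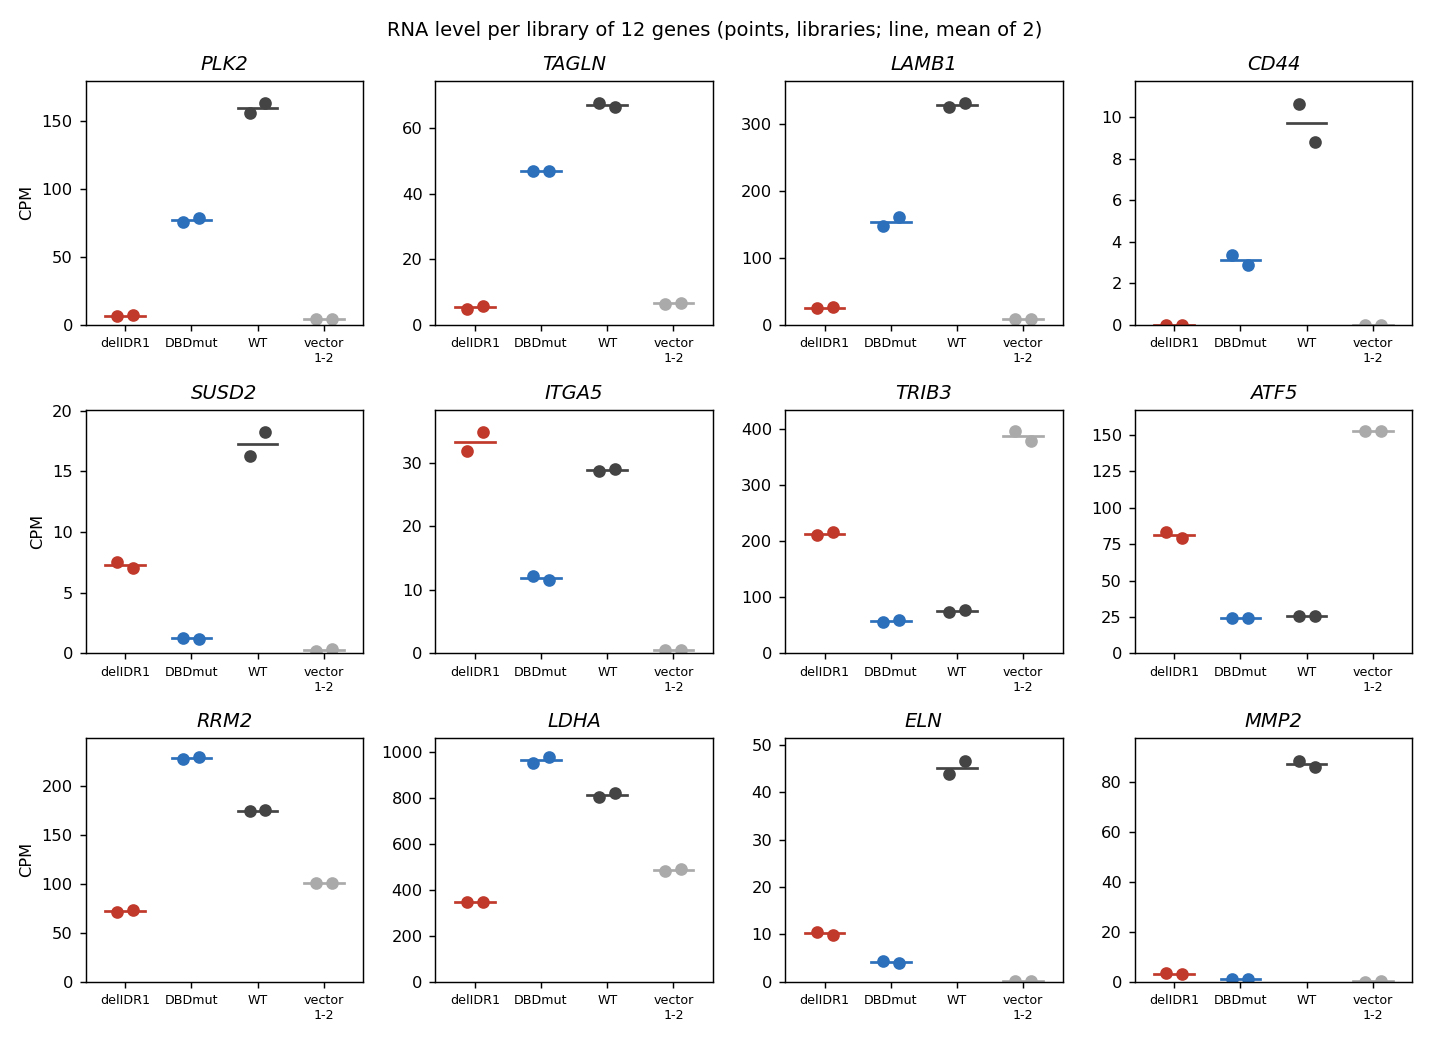
CPM of 12 genes in each of 2 libraries of delIDR1 (red), DBDmut (blue), WT (dark grey) and the vector replicates 1 and 2 (light grey); points are libraries and lines are means of 2, each panel on its own axis from 0. PLK2, TAGLN, LAMB1 and CD44 are low in delIDR1 cells, ATF5 and TRIB3 lie between DBDmut and the vector, and RRM2 and LDHA are lower in delIDR1 cells than with the vector.

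Set against WT, delIDR1 differed at many more genes than DBDmut in the higher direction. At least 2-fold, 505 genes were higher (3.55%) and 738 lower (5.19%) in delIDR1 cells than in WT cells. For DBDmut cells against WT cells the counts were 30 higher (0.211%) and 417 lower (2.93%). Both comparisons share the WT libraries. Against the vector, which both mutants also share, delIDR1 gave 1065 genes higher (7.49%) and 248 lower (1.74%), DBDmut gave 1098 higher (7.72%) and 528 lower (3.71%), and WT gave 1427 higher (10.04%) and 552 lower (3.88%).

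The 1427 genes raised by WT were chosen from WT and vector libraries, which do not enter the difference between the mutants. Of these genes 620 were lower in delIDR1 cells than in DBDmut cells (43.4%, against 31.4% of all genes tested) and 260 were higher (18.2%, against 26.7%). At least 2-fold, 282 were lower and 149 higher, and the median log2 fold change was -0.29 against -0.02 for all genes. Their median log2 fold change over the vector was 1.30 in delIDR1 cells, 1.53 in DBDmut cells and 2.10 in WT cells. The raised genes thus divided: more of them were lower in delIDR1 cells, but a minority, SUSD2, ITGA5 and MMP2 among them, was higher.

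The 552 genes lowered by WT differed in 1 direction. Of these, 59.2% were higher in delIDR1 cells than in DBDmut cells (against 26.7% of all genes), 14 genes were lower, and 211 were not called. Their median log2 fold change was 0.67 between the mutants, and over the vector it was -0.56 in delIDR1 cells, -1.21 in DBDmut cells and -1.36 in WT cells. Below the vector, 321 were called in delIDR1 cells and 500 in DBDmut cells. With the 4 vector libraries as 1 group, the genes lowered by WT were chosen anew. Of that other set, whose size is not given here, 112 genes were higher and 10 lower in delIDR1 cells than in DBDmut cells.

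**Figure D3:**
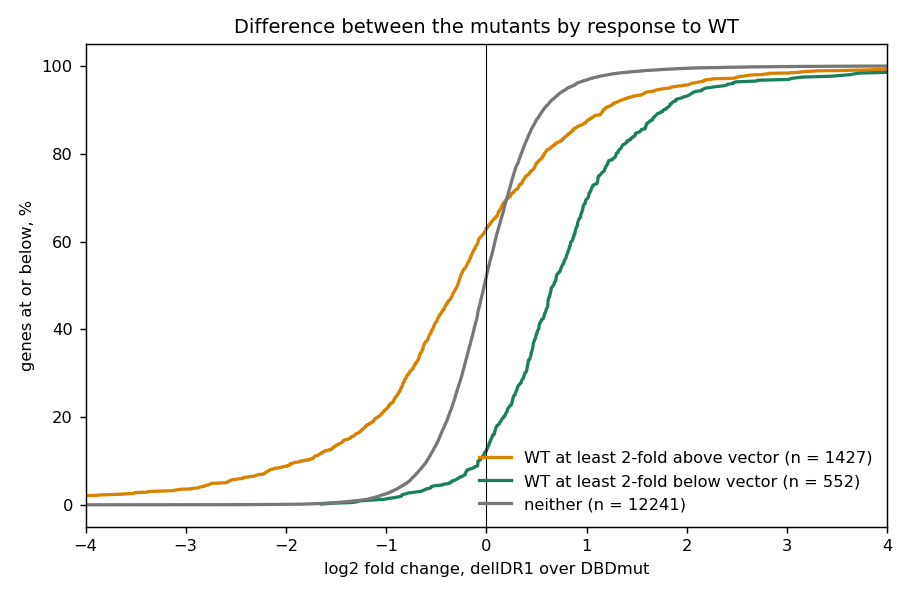
Cumulative share of genes (vertical, %) by log2 fold change of delIDR1 over DBDmut (horizontal), for genes that WT raised at least 2-fold over the vector (orange, median -0.29), genes that WT lowered (green, median 0.67) and the others (grey, median -0.02). The orange curve lies to the left of 0 for most of its genes and the green curve to the right of it for most.

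Of the 539 genes at least 2-fold lower in delIDR1 cells than in DBDmut cells, 282 were raised by WT, 4 were lowered and 253 were neither. Of the 620 at least 2-fold higher, 149 were raised by WT, 144 lowered and the others neither. By mean log2 level, DBDmut lay nearer to WT than delIDR1 did at 499 of the 539 and 450 of the 620 genes. The CBR truncation lay nearer to delIDR1 than to DBDmut at 523 of the 539 and 515 of the 620. The nearness counts are descriptions, since the same libraries chose the genes.

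Genes of DNA replication and mitosis were lower in delIDR1 cells. Of 51 cell cycle genes tested 47 were lower and 1 was higher, 27 of them at least 2-fold lower, and the list's median log2 fold change was -1.04 (-0.02 for all genes). RRM2, the small subunit of ribonucleotide reductase, had 71.8 and 72.9 CPM in delIDR1 cells and 228 and 229 CPM in DBDmut cells (-1.66 ± 0.0407, adjusted p = 5.42e-21). TYMS, thymidylate synthase, had 50.1 and 49.0 CPM in delIDR1 cells and 154 and 157 CPM in DBDmut cells (-1.65 ± 0.0469, adjusted p = 1.01e-19). The origin licensing factor CDC6 (28.2 and 27.3 CPM against 78.4 and 74.2 CPM) and the helicase subunit MCM6 (60.02 and 61.8 CPM against 145 and 147 CPM) differed alike. The 1 gene that was higher, named after its value was seen, is CDKN1C, which encodes the cyclin-dependent kinase inhibitor p57 (1.09). The kinase inhibitor genes CDKN1A (-0.10), CDKN1B (0.10) and CDKN2B (0.11) were not called.

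The vector lay between the mutants for these genes. Against the vector 38 of the 51 were lower and 4 higher in delIDR1 cells, and 46 were higher and 1 lower in DBDmut cells. RRM2 stood at 174 and 176 CPM with WT and at 101 CPM in each vector library, so DBDmut lay above WT (0.38, adjusted p = 3.03e-08) and delIDR1 below the vector. Of the 51 genes, 46 were lower and 1 higher in delIDR1 cells than in WT cells, whereas 42 were higher and 4 lower in DBDmut cells than in WT cells. Growth state and cell density of the cultures are not in the labels, and their part was not tested.

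E2F factors drive many genes of this list through short sites near the start. Promoters from RefSeq (GRCh38.p14, 250 bases before to 50 after the start) were matched for 41 of the 51 genes and searched on both strands for TTTCCCGC or TTTGGCGC, which 12 of them hold (29.3%), against 2.31% of all 27305 promoters in the table and 3.63% of the 11042 matched to tested genes. All 12 genes were lower in delIDR1 cells, but so were 47 of the 51 whatever their promoter. The direction thus does not set genes with a match apart from the rest of the list. With TTTCGCGC and TTTGCCGC searched as well, 14 of the 41 hold a match (34.1%), against 5.26% of those matched to tested genes. The promoters of TYMS and CDC6, those with the largest falls among the 12, are shown with the match in capitals.
TYMS, chr18:657403-657702, plus strand: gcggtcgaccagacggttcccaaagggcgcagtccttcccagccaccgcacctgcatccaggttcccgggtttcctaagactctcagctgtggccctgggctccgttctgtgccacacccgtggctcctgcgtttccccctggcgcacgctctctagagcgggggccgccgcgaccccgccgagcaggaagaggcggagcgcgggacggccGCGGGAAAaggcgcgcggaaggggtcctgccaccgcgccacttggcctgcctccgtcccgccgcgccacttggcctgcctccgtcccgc
CDC6, chr17:40287629-40287928, plus strand: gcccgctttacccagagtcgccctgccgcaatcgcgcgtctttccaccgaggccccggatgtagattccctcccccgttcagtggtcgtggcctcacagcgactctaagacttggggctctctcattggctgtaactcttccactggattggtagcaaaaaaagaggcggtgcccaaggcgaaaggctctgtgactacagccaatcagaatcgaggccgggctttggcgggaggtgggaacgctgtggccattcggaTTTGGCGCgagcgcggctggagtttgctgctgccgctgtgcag
The match in TYMS is on the opposite strand. A match describes these letters only, and binding of E2F factors was not measured. The genes of 2 such factors, named after their values were seen, are among the 12. They are E2F1 (-1.04, adjusted p = 1.73e-12) and E2F2 (-1.39, adjusted p = 6.47e-15). Among genes at least 2-fold lower in delIDR1 cells 29 of 402 matched promoters hold it (7.21%), and among those at least 2-fold higher 7 of 415 (1.69%). The lower set includes members of the cell cycle list with a match, TYMS and CDC6 among them.

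Genes of glycolysis and the hypoxia response differed the same way. Of 31 tested, 26 were lower and 3 higher in delIDR1 cells, with a median of -0.67. LDHA, lactate dehydrogenase A, had 346 and 348 CPM in delIDR1 cells and 952 and 980 CPM in DBDmut cells (-1.48 ± 0.0391, adjusted p = 2.49e-20). PDK1, which restrains pyruvate entry into mitochondria, had 26.7 and 25.7 CPM in delIDR1 cells and 74.7 and 82.1 CPM in DBDmut cells (-1.58 ± 0.0597, adjusted p = 3.32e-17). PGK1 (289 and 298 CPM against 609 and 620 CPM) and GPI (322 and 321 CPM against 650 and 634 CPM), both glycolytic enzymes, were close to 2-fold lower. Against the vector 17 of the 31 were lower and 8 higher in delIDR1 cells, and 2 were lower and 26 higher in DBDmut cells.

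Of 56 cytosolic ribosomal protein genes 52 were lower in delIDR1 cells and none higher, with a median of -0.37 and no difference of 2-fold. RPL7 had 445 and 443 CPM in delIDR1 cells and 906 and 760 CPM in DBDmut cells (-0.91 ± 0.0685, adjusted p = 2.01e-11). RPL5 had 726 and 730 CPM in delIDR1 cells and 1207 and 1200 CPM in DBDmut cells (-0.72 ± 0.0461, adjusted p = 7.38e-13). These counts depend on the processing: 34 were lower with library totals and 9 with the vector libraries as 1 group, and many of these genes have processed pseudogenes that could share their reads.

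**Figure D4:**
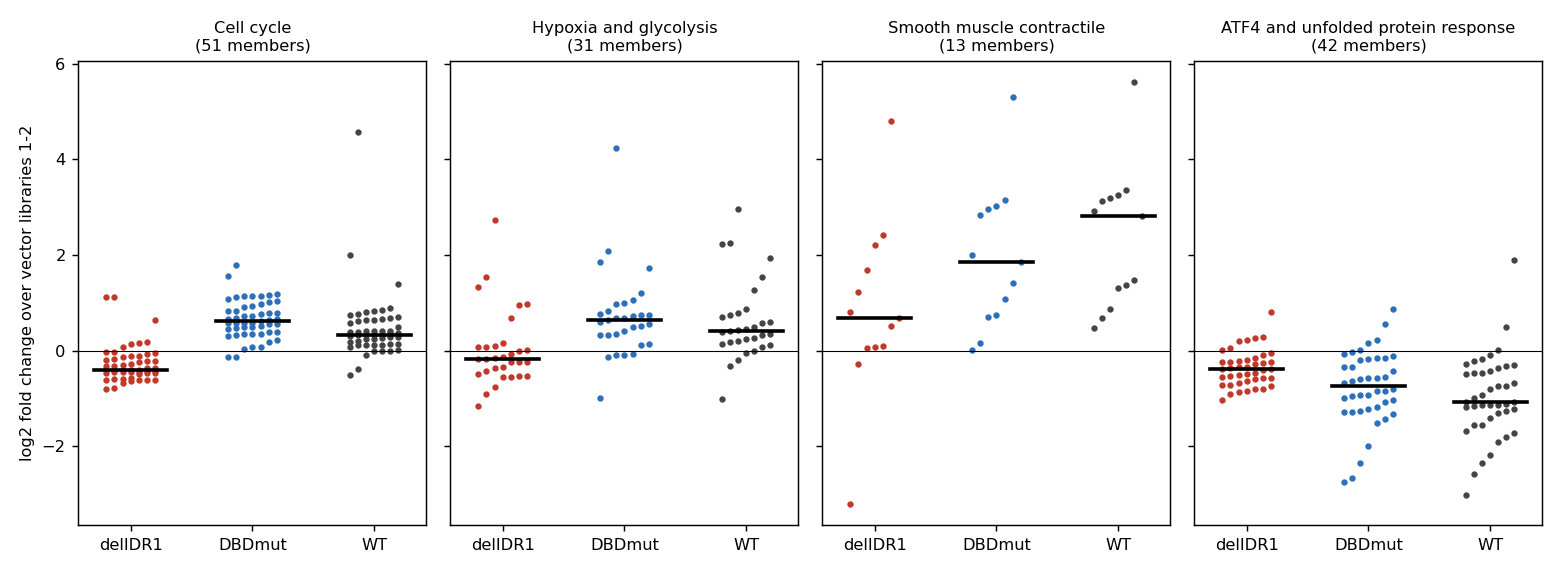
Log2 fold change over vector replicates 1 and 2 of each tested member of 4 gene lists in delIDR1 (red), DBDmut (blue) and WT (grey) cells; the 3 groups share the vector libraries, and black bars are medians. For the cell cycle list the medians are -0.40 in delIDR1 cells, 0.63 in DBDmut cells and 0.33 in WT cells, so the mutants lie on either side of the vector.

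Contractile and cytoskeletal genes of smooth muscle, many of them targets of serum response factor (SRF), were lower in delIDR1 cells. Of 13 tested, 9 were lower and 2 higher, 6 of them at least 2-fold lower, with a median of -0.67. ACTA2, smooth muscle actin, had 3.45 and 2.74 CPM in delIDR1 cells and 29.6 and 28.3 CPM in DBDmut cells (-3.22 ± 0.134, adjusted p = 2.33e-16). TAGLN, the actin-binding protein transgelin, had 4.93 and 5.75 CPM in delIDR1 cells and 46.8 and 46.9 CPM in DBDmut cells (-3.13 ± 0.0917, adjusted p = 1.90e-19). ACTA2 in delIDR1 cells lay below the vector (28.5 and 28.7 CPM), and TAGLN lay near it (6.26 and 6.79 CPM). TPM1, a tropomyosin, had 54.2 and 51.6 CPM in delIDR1 cells and 133 and 132 CPM in DBDmut cells, and MYLK, myosin light chain kinase, 31.1 and 31.3 CPM against 79.5 and 79.0 CPM. Against the vector 7 of the 13 were higher and 2 lower in delIDR1 cells, and 11 were higher in DBDmut cells. The 2 members higher in delIDR1 cells than in DBDmut cells, named after their values were seen, are DES (1.84), an intermediate filament gene, and LMOD1 (0.56), an actin nucleator, and 1 of them was called in each fit without 1 of the 4 libraries. The actin genes are close paralogs that could share reads.

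SRF binds the CArG box. Of the 10 promoters matched to the 13 genes 3 hold it on either strand (30.0%), those of ACTG2, CNN2 and MYLK, against 1.29% of all 27305 promoters and 1.08% of those matched to tested genes. All 3 genes were lower in delIDR1 cells, as were 9 of the 13 whatever their promoter. The promoters of ACTG2 and MYLK are shown because their falls were the larger of the 3, with CArG boxes in capitals.
ACTG2, chr2:73892758-73893057, plus strand: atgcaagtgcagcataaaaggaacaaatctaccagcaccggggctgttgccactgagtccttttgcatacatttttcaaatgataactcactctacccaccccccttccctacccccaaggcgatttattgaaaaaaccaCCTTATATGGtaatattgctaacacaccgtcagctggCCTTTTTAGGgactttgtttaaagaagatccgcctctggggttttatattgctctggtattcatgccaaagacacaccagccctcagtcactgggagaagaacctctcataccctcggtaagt
MYLK, chr3:123620499-123620798, minus strand: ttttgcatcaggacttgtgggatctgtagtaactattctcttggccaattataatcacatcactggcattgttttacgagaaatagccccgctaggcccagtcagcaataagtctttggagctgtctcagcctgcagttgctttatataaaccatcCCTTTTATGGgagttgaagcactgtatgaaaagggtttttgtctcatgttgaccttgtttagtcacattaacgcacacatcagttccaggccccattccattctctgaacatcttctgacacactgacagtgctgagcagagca
ACTG2, enteric smooth muscle actin, had 0.218 and 0.449 CPM in delIDR1 cells and 2.69 and 3.04 CPM in DBDmut cells (-3.09 ± 0.354, adjusted p = 5.37e-08). Its promoter holds 2 boxes and that of MYLK 1. Among genes at least 2-fold lower in delIDR1 cells 10 of 402 promoters hold a box (2.49%), and among those at least 2-fold higher 3 of 415 (0.723%). The lower set includes ACTG2 and MYLK themselves.

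Targets of YAP and TEAD, which act with cytoskeletal tension and cell density, were mostly lower: 13 of 23 were lower and 1 higher, with a median of -0.42. The 1 that was higher was called in no fit without 1 of the 4 libraries. ANKRD1, a muscle ankyrin repeat protein, had 2.05 and 2.61 CPM in delIDR1 cells and 8.31 and 8.07 CPM in DBDmut cells (-1.81 ± 0.126, adjusted p = 3.78e-12). The secreted matricellular proteins CTGF (9.91 and 10.1 CPM against 23.1 and 26.5 CPM) and CYR61 (80.7 and 79.5 CPM against 144 and 150 CPM) were lower too, but were not called with the vector libraries as 1 group (adjusted p = 0.0794 and adjusted p = 0.0945). FJX1 had 8.38 and 8.04 CPM in delIDR1 cells and 24.5 and 22.6 CPM in DBDmut cells. IGFBP3, a carrier of insulin-like growth factors, had 0.306 and 0.180 CPM in delIDR1 cells and 3.46 and 3.32 CPM in DBDmut cells (-3.77 ± 0.295, adjusted p = 4.16e-11). Against the vector 10 of the 23 were higher and 6 lower in delIDR1 cells, and 16 were higher and 1 lower in DBDmut cells. The promoter search also covered GGAATG, bound by TEAD factors, and TGANTCA, bound by AP-1, on both strands. GGAATG was in 7 of the 17 promoters matched to the 23 genes (41.2%), against 1214 of the 11042 matched to tested genes, and in 13.9% of promoters of genes at least 2-fold lower and 10.1% of those at least 2-fold higher. TGANTCA was in 7.96% of promoters of genes at least 2-fold lower and 6.99% of those at least 2-fold higher, against 4.51% of those matched to tested genes.

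Of 12 AP-1 transcription factor genes 4 were lower and 2 higher, with a median of -0.01, beside 31.4% lower and 26.7% higher for all genes tested. JUN had 24.9 and 26.1 CPM in delIDR1 cells and 61.9 and 56.2 CPM in DBDmut cells (-1.21 ± 0.0649, adjusted p = 2.90e-14), and FOSL2 had 85.2 and 84.4 CPM against 143 and 141 CPM. Among 24 immediate early and MAPK feedback genes, 8 were higher and 9 lower, with a median of -0.04, and 5 were higher without either delIDR1 replicate. MYC stood at 55.8 and 57.5 CPM in delIDR1 cells and 105 CPM in each DBDmut library (-0.89 ± 0.0465, adjusted p = 1.66e-14), and SPRY4, a feedback inhibitor of receptor tyrosine kinases, at 186 and 179 CPM against 315 and 312 CPM. EGR1 went the other way, with 171 and 179 CPM in delIDR1 cells and 115 and 120 CPM in DBDmut cells. It was not called with the vector libraries as 1 group (adjusted p = 0.370), at the same log2 fold change of 0.57.

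Members of the extracellular matrix lists differed in both directions, in shares to be read against the 26.7% higher and 31.4% lower of all genes tested. LAMB1, the laminin beta 1 chain of basement membranes, had 24.4 and 26.7 CPM in delIDR1 cells and 147 and 160 CPM in DBDmut cells (-2.59 ± 0.0636, adjusted p = 5.42e-21), with 325 and 330 CPM in WT cells and 8.25 and 8.32 CPM with the vector. Of 10 genes of laminins, nidogens and perlecan 5 were lower and 3 higher, with a median of -0.11, and without delIDR1 replicate 2 or DBDmut replicate 2 it was 3 lower and 1 higher. LAMC1, the shared gamma 1 chain, was lower (590 and 600 CPM against 900 and 918 CPM), and LAMB3, a chain of epithelial laminin, was higher (3.71 and 3.55 CPM in delIDR1 cells against 1.49 and 1.799 CPM in DBDmut cells). Of 26 collagen genes 11 were lower and 5 higher, with a median of -0.27. COL3A1 had 312 and 321 CPM in delIDR1 cells and 562 and 554 CPM in DBDmut cells, and COL12A1, a fibril-associated collagen, 0.655 and 0.854 CPM against 4.61 and 3.97 CPM. COL6A2, a chain of microfibrillar collagen, was higher (268 and 269 CPM against 179 and 168 CPM).

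COL1A1 had 13.97 and 14.1 CPM in delIDR1 cells and 19.3 and 15.3 CPM in DBDmut cells (-0.30 ± 0.111, adjusted p = 0.0226). The call was lost without delIDR1 replicate 1 (-0.31), delIDR1 replicate 2 (-0.32) or DBDmut replicate 1 (-0.13). It was also lost with the vector libraries as 1 group (adjusted p = 0.108) and with library totals (-0.13, adjusted p = 0.312). Both mutants lay far below WT (88.4 and 90.2 CPM) for this gene. ELN, elastin, was higher in delIDR1 cells (10.5 and 9.97 CPM) than in DBDmut cells (4.42 and 3.92 CPM; 1.30 ± 0.161, adjusted p = 1.54e-07), again far below WT (43.8 and 46.7 CPM). Of the 27 elastic fibre and matrix glycoprotein genes tested, 9 were higher and 9 lower, with a median of 0.21. The lower ones included THBS1, thrombospondin 1 (313 and 311 CPM in delIDR1 cells, 731 and 755 CPM in DBDmut cells), TNC, tenascin C (4.76 and 4.72 CPM against 21.7 and 21.9 CPM), and POSTN, periostin (7.73 and 8.04 CPM against 27.7 and 33.4 CPM).

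Of 21 matrix protease and inhibitor genes 6 were higher and 6 lower, with a median of 0.19. MMP2, gelatinase A, had 3.54 and 2.92 CPM in delIDR1 cells and 1.01 CPM in each DBDmut library (1.67 ± 0.230, adjusted p = 8.00e-07), with 88.8 and 86.1 CPM in WT cells. MMP15, a membrane-anchored protease, was about 2-fold higher (131 and 130 CPM against 68.5 and 62.0 CPM), and PLAU, urokinase, was lower (4.63 and 4.54 CPM in delIDR1 cells against 16.1 and 15.0 CPM in DBDmut cells). Both mutants fell short of WT for MMP2 by a wide margin, DBDmut by more.

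Of 19 integrin genes 7 were higher and 8 lower, with a median of -0.22. ITGA5, the alpha chain of the fibronectin receptor, had 31.8 and 34.9 CPM in delIDR1 cells and 12.1 and 11.5 CPM in DBDmut cells (1.496 ± 0.0833, adjusted p = 6.07e-14), with 28.7 and 29.0 CPM in WT cells. ITGB8, which activates latent TGF-beta, had 13.1 and 13.6 CPM in delIDR1 cells and 52.2 and 57.8 CPM in DBDmut cells (-2.05 ± 0.0971, adjusted p = 2.71e-15). ITGB5 was lower (116 and 110 CPM against 266 and 258 CPM) and ITGA3 higher (67.7 and 70.2 CPM against 41.0 and 38.7 CPM). CD44, the hyaluronan receptor, had no read in delIDR1 cells and 3.36 and 2.86 CPM in DBDmut cells, which is at least 46.8-fold lower against a floor of 3 counts over the group. It had no read in the vector libraries either, and 10.7 and 8.81 CPM in WT cells. Of 25 hyaluronan and glycosaminoglycan genes 10 were higher and 9 lower, with a median of 0.12. EXT1, which polymerises heparan sulfate, was lower (66.4 and 64.1 CPM against 110 and 116 CPM) and CHST3, a chondroitin sulfotransferase, higher (198 and 203 CPM against 115 CPM in each DBDmut library).

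Mesenchymal markers were lower where called, 5 of 9, with none higher and a median of -0.52. VIM, vimentin, had 2558 and 2554 CPM in delIDR1 cells and 4345 and 4482 CPM in DBDmut cells (-0.79 ± 0.0435, adjusted p = 5.11e-14). S100A4 had 46.2 and 48.2 CPM in delIDR1 cells and 106 and 95.8 CPM in DBDmut cells, and the repressor ZEB1 117 CPM in each delIDR1 library against 160 and 176 CPM. Of 16 epithelial markers 6 were higher and 2 lower, with a median of 0.77. The 2 lower, named after their values were seen, were KRT19 (-4.47, adjusted p = 0.0379) and OCLN (-0.45, adjusted p = 0.00478). The higher ones named were near the detection limit. CDH1, E-cadherin, rests on 39 reads in delIDR1 cells and 3 in DBDmut cells (ratio 12.2, 95% counting interval 3.89 to 61.9), and CLDN7 had 1.18 and 1.08 CPM against 0.240 and 0.369 CPM. The number lower was 0 without delIDR1 replicate 2 and 1 without any other of the 4 libraries. With only genes of an average log2 CPM of at least 1, no epithelial marker was higher and 1 was lower.

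**Figure D5:**
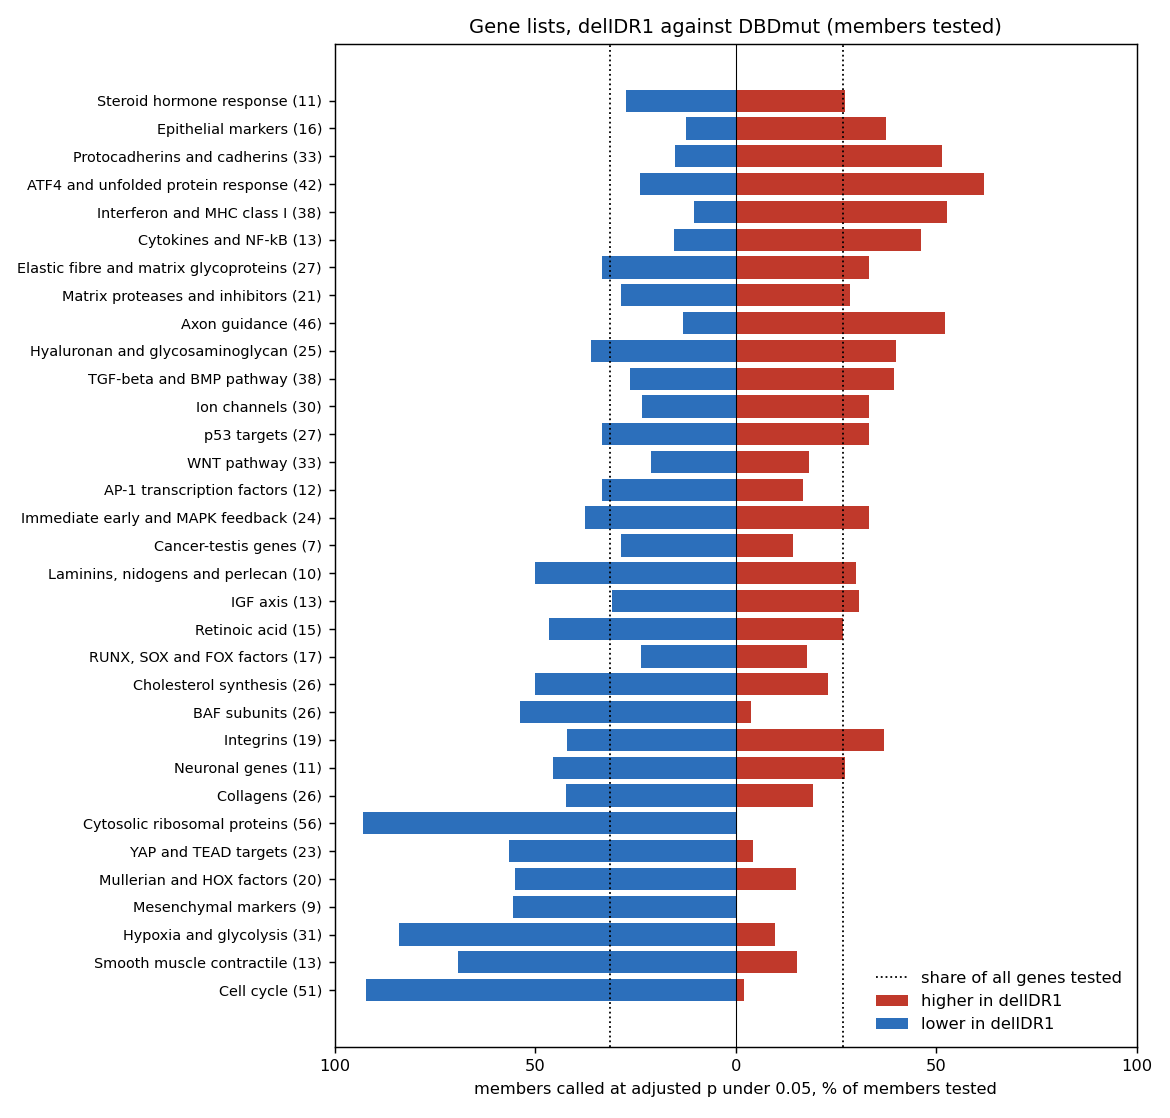
Share of tested members higher (red, right) or lower (blue, left) in delIDR1 cells than in DBDmut cells at an adjusted p under 0.05, for gene lists with at least 5 tested members (number in brackets), ordered by median log2 fold change; dotted lines mark the shares of all genes tested (26.7% and 31.4%). The cell cycle, ribosomal, hypoxia and smooth muscle lists reach furthest to the left, and the ATF4 list furthest to the right.

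Genes of the ATF4 branch of the stress response were higher in delIDR1 cells than in DBDmut cells. ATF4 is translated when amino acids are short or unfolded protein builds up, and it induces amino acid synthesis, transport and tRNA charging. Of 42 genes of ATF4 and the unfolded protein response 26 were higher and 10 lower, with a median of 0.43. TRIB3, a pseudokinase that restrains ATF4, had 210 and 216 CPM in delIDR1 cells and 55.4 and 59.6 CPM in DBDmut cells (1.89 ± 0.0635, adjusted p = 3.58e-18). The transcription factor ATF5 had 83.5 and 79.5 CPM in delIDR1 cells and 24.0 CPM in each DBDmut library (1.76 ± 0.0661, adjusted p = 3.17e-17). CEBPG, a partner of ATF4, had 199 and 193 CPM against 84.9 and 84.1 CPM, and SARS, seryl-tRNA synthetase, 542 and 541 CPM against 309 and 288 CPM. ASNS, asparagine synthetase, differed less (423 and 427 CPM in delIDR1 cells, 290 and 300 CPM in DBDmut cells).

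Both mutants lay below the vector for most of the list: 30 genes were lower and 5 higher in delIDR1 cells, and 34 lower and 3 higher in DBDmut cells. TRIB3 stood at 74.4 and 77.9 CPM with WT and 397 and 379 CPM with the vector, so delIDR1 was between them and DBDmut was below WT (-0.41, adjusted p = 5.17e-05). The members lower in delIDR1 cells than in DBDmut cells include chaperones of the endoplasmic reticulum, among them HSPA5 (-0.13), HYOU1 (-0.32) and PDIA4 (-0.54), named after their values were seen. The fall of HSPA5 is smaller than the shift between scalings.

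The element bound by ATF4 with C/EBP factors was searched as TGATGNAA on both strands. Of the 33 promoters matched to the 42 genes 9 hold it (27.3%), against 3.67% of all 27305 promoters and 1.69% of those matched to tested genes. Of these 9 genes 7 were higher in delIDR1 cells and 2, NARS and HERPUD1, were lower. Of all 42, whatever their promoter, 26 were higher and 10 lower. FGF21 and CHAC1 are shown because their rises were the largest of the 9, with the match, on the opposite strand in both, in capitals.
FGF21, chr19:48755274-48755573, plus strand: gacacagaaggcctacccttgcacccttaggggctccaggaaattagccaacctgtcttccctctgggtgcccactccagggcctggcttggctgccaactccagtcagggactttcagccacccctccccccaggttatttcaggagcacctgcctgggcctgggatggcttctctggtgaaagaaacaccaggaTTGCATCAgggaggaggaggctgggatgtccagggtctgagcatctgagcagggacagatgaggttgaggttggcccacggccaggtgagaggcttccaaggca
CHAC1, chr15:40953221-40953520, plus strand: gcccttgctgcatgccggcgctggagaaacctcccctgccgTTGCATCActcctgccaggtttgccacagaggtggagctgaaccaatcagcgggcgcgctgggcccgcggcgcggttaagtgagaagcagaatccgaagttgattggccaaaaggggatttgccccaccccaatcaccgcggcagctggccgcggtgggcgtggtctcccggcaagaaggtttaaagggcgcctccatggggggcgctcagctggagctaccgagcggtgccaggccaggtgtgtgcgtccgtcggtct
CHAC1, which degrades glutathione, had 69.8 and 71.7 CPM in delIDR1 cells and 35.4 and 38.2 CPM in DBDmut cells (0.94 ± 0.065, adjusted p = 3.57e-12), and FGF21, a stress hormone, 3.40 and 2.88 CPM against 1.01 CPM in each DBDmut library (1.63 ± 0.255, adjusted p = 5.22e-06). Among genes at least 2-fold higher in delIDR1 cells 16 of 415 promoters hold the element (3.86%), and among those at least 2-fold lower 9 of 402 (2.24%). The higher set includes FGF21 itself.

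Of 38 genes of the interferon response and MHC class I 20 were higher and 4 lower, with a median of 0.37. IFI6 had 51.3 and 50.9 CPM in delIDR1 cells and 25.4 and 21.5 CPM in DBDmut cells (1.12 ± 0.086, adjusted p = 2.59e-11), and IFIT2 71.8 and 71.0 CPM against 45.1 and 41.7 CPM. IFIT1, of the same RNA-binding family, was lower (68.3 and 68.7 CPM in delIDR1 cells against 102 and 105 CPM in DBDmut cells), and this call was lost with the vector libraries as 1 group (adjusted p = 0.0947). Further members, named after their values were seen, were the RNA sensors OAS1 (2.18) and OAS2 (1.89) and the MHC class I activator NLRC5 (1.47). Against the vector 25 of the 38 were higher and 4 lower in delIDR1 cells, and 14 were higher and 9 lower in DBDmut cells.

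Protocadherin and cadherin genes, which encode homophilic adhesion receptors, were more often higher: 17 of 33 against 5 lower, with a median of 0.49, and 8 were higher with the vector libraries as 1 group. PCDH1 had 59.6 and 59.4 CPM in delIDR1 cells and 20.5 and 18.7 CPM in DBDmut cells (1.60 ± 0.067, adjusted p = 2.50e-16), and PCDHB16, of a cluster of similar genes that could share reads, 65.0 and 63.9 CPM against 44.2 and 50.4 CPM. PCDH20 was the exception among the named members, with 2 reads in delIDR1 cells and 209 in DBDmut cells (ratio 111, 95% counting interval 30.4 to 923). Axon guidance genes had 24 of 46 higher and 6 lower, with a median of 0.18. EFNB1, an ephrin, had 42.6 and 41.9 CPM in delIDR1 cells and 16.8 and 14.3 CPM in DBDmut cells (1.45 ± 0.081, adjusted p = 6.55e-14), and the semaphorin receptors PLXNB1 (125 and 127 CPM against 73.3 and 72.1 CPM) and PLXNA3 (143 and 138 CPM against 88.7 and 89.7 CPM) were higher too.

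Lists of developmental transcription factors are given beside 26.7% higher and 31.4% lower for all genes. Of 20 Mullerian and HOX factors 11 were lower and 3 higher, with a median of -0.49, and 5 were lower with the vector libraries as 1 group. MEIS2, a cofactor of HOX proteins, had 61.2 and 59.97 CPM in delIDR1 cells and 109 and 113 CPM in DBDmut cells (-0.87 ± 0.0464, adjusted p = 2.74e-14), whereas HOXB9 was higher (52.99 and 53.4 CPM against 38.2 and 37.0 CPM). Of 17 RUNX, SOX and FOX factors 3 were higher and 4 lower, with a median of -0.14, and 1 was higher without delIDR1 replicate 1 or DBDmut replicate 2. RUNX2, a regulator of bone and matrix genes, had 1.27 and 0.764 CPM in delIDR1 cells and 3.36 and 4.15 CPM in DBDmut cells (-1.88 ± 0.246, adjusted p = 5.57e-07), with 15.6 and 18.6 CPM in WT cells and no read with the vector. SOX9 had 182 and 179 CPM in delIDR1 cells and 260 and 272 CPM in DBDmut cells.

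Retinoic acid genes had 4 of 15 higher and 7 lower, with a median of -0.14, beside 26.7% higher and 31.4% lower for all genes tested. Without delIDR1 replicate 2 it was 2 higher and 4 lower, and without delIDR1 replicate 1 or DBDmut replicate 1 it was 2 higher. RDH10, which oxidises retinol, had 14.7 and 12.8 CPM in delIDR1 cells and 49.9 and 46.4 CPM in DBDmut cells (-1.81 ± 0.077, adjusted p = 3.33e-16). The receptor RARB had 7.03 and 6.20 CPM against 21.6 and 26.4 CPM, and ALDH1A1, which makes retinoic acid, rests on 3 reads in delIDR1 cells and 100 in DBDmut cells (ratio 35.4, 95% counting interval 11.8 to 175). ALDH1A2, a further enzyme of retinoic acid synthesis named after its value was seen, was higher (0.70, adjusted p = 0.00609).

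The shares called in the signalling lists are to be read against the same background of 26.7% higher and 31.4% lower. Of 33 WNT pathway genes 6 were higher and 7 lower, with a median of -0.00, and 3 were lower without delIDR1 replicate 1. The ligand WNT6 had 11.2 and 10.5 CPM in delIDR1 cells and 3.26 and 2.81 CPM in DBDmut cells (1.84 ± 0.174, adjusted p = 1.39e-09), with 15.1 and 14.4 CPM in WT cells, and WNT7B 0.218 and 0.180 CPM against 1.248 and 1.52 CPM. Of 38 TGF-beta and BMP genes 15 were higher and 10 lower, with a median of 0.05. ID2, a BMP target that blocks differentiation factors, had 136 and 134 CPM in delIDR1 cells and 63.0 and 69.8 CPM in DBDmut cells (1.02 ± 0.0571, adjusted p = 6.51e-14), and the BMP antagonist CHRD 17.3 and 17.4 CPM against 7.15 and 7.06 CPM. In the IGF axis 4 of 13 genes were higher and 4 lower (median -0.13), among them IGF2BP3, an RNA-binding protein (110 and 109 CPM against 213 and 239 CPM). Of 13 cytokine and NF-kB genes 6 were higher and 2 lower (median 0.28; 4 lower without DBDmut replicate 1), among them TNFAIP2 (3.01 and 2.96 CPM against 0.720 and 0.323 CPM).

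Of 11 steroid hormone response genes 3 were higher and 3 lower, with a median of 0.81, and none was higher without delIDR1 replicate 1 or DBDmut replicate 2. These counts are near the shares of all genes tested, 26.7% higher and 31.4% lower. SGK1, a kinase induced by glucocorticoids and serum, had 2.01 and 2.20 CPM in delIDR1 cells and 14.9 and 15.6 CPM in DBDmut cells (-2.86 ± 0.144, adjusted p = 9.19e-15). HSD17B2, which inactivates estradiol, had no read in delIDR1 cells and 43 in DBDmut cells (at least 15.2-fold lower). PRLR, the prolactin receptor, had 0.393 and 0.449 CPM in delIDR1 cells and 0.240 and 0.231 CPM in DBDmut cells and was not called (adjusted p = 0.218), with 13.6 and 14.5 CPM in the vector. GRB10, an adaptor of the insulin receptor, had 2.71 and 2.92 CPM in delIDR1 cells and 2.06 and 1.85 CPM in DBDmut cells (0.52 ± 0.173, adjusted p = 0.0178), with 12.9 and 12.6 CPM in the vector. The GRB10 call was lost with the vector libraries as 1 group (adjusted p = 0.166) and with DESeq2 (adjusted p = 0.0561). It was also lost without delIDR1 replicate 2 (0.45) or DBDmut replicate 2 (0.44). Both mutants were thus far below the vector for PRLR and GRB10.

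Among 30 ion channel genes 10 were higher and 7 lower (median 0.04), and 5 or 6 were higher without delIDR1 replicate 1, delIDR1 replicate 2 or DBDmut replicate 2. The shares of all genes tested were 26.7% higher and 31.4% lower. KCNG1, a modifier subunit of potassium channels, had 55.6 and 55.0 CPM in delIDR1 cells and 17.0 and 17.6 CPM in DBDmut cells (1.67 ± 0.0903, adjusted p = 3.29e-14), and the sodium channel SCN9A 2.66 and 2.74 CPM against 13.1 and 16.1 CPM. Of 11 neuronal genes 3 were higher and 5 lower (median -0.24). VSTM2L had 3.32 and 2.52 CPM in delIDR1 cells and 17.3 CPM in each DBDmut library, and DCX, doublecortin, 0.917 and 1.39 CPM against 4.90 and 6.50 CPM, with no read of either in the vector libraries. Both genes were thus detected in both mutants, at lower levels in delIDR1 cells. Of 7 cancer-testis genes 1 was higher and 2 lower (median -0.08), and MAGEC2 was not called (0.218 and 0.270 CPM in delIDR1 cells, 0.096 and 0.138 CPM in DBDmut cells, 5.62 and 6.02 CPM in the vector).

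Of 26 cholesterol synthesis genes 13 were lower and 6 higher, with a median of -0.15, and 1 was lower with the vector libraries as 1 group. Without delIDR1 replicate 2 or DBDmut replicate 2, 3 were higher. DHCR7, the last enzyme of the pathway, was higher (456 and 452 CPM in delIDR1 cells against 294 and 308 CPM in DBDmut cells). Both mutants had most of this list above the vector, with 25 of 26 higher in delIDR1 cells and 24 in DBDmut cells. Of 27 p53 targets 9 were higher and 9 lower (median 0.01), near the 26.7% higher and 31.4% lower of all genes tested. CCNG1 (216 and 213 CPM in delIDR1 cells, 346 and 380 CPM in DBDmut cells) and DDB2 (36.9 and 38.5 CPM against 69.2 and 66.1 CPM) were among the lower.

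Of 26 genes of BAF complex subunits tested 14 were lower, 1 was higher and 11 were not called, with a median of -0.19, near the shift between scalings. BCL7A had 54.5 and 51.0 CPM in delIDR1 cells and 107 and 108 CPM in DBDmut cells (-1.02 ± 0.0547, adjusted p = 2.78e-14), with 47.8 and 48.8 CPM in the vector. PHF10, a subunit of the PBAF form (33.9 CPM in each delIDR1 library, 55.7 and 58.7 CPM in DBDmut cells), and the core subunit SMARCC1 (235 and 232 CPM against 352 and 360 CPM) were lower too. The ATPase SMARCA4 had 350 CPM in each delIDR1 library and 427 and 416 CPM in DBDmut cells (-0.27 ± 0.042, adjusted p = 5.29e-06), which did not pass with the vector libraries as 1 group (adjusted p = 0.0553). The number lower was 9 with library totals and 8 with the vector libraries as 1 group. BCL7B was the 1 subunit gene that was higher (76.2 and 73.9 CPM against 66.9 and 64.5 CPM), and it was not called without any 1 of the 4 libraries (adjusted p = 0.0657 to 0.202).

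Of the lists for other cell types, 1 leukocyte marker was tested, CD68, which many cell types express, and it was lower (4.98 and 4.67 CPM in delIDR1 cells against 7.87 and 7.47 CPM in DBDmut cells). Neither of the 2 endothelial markers tested was called, and no blood marker was tested.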

How the data were processed

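Polyadenylated RNA of AN3CA cells was sequenced in 28 libraries. Per the submitters' processing notes, bcl2fastq, STAR 2.5.2b and Bowtie2 2.29 were used with genome build hg19; the role of each tool and the gene annotation are not given in the sources used here. The deposited files give unnormalized read counts over 26346 gene symbols. Of their strand settings, the count of reads opposite in strand to each gene was used. Lines that name no gene, 31.3 to 36.3% of reads in the 8 libraries of delIDR1, DBDmut, WT and empty vector replicates 1 and 2, were left out.

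One edgeR 4.0.16 quasi-likelihood fit (limma 3.58.1, R 4.3.3) covered all 28 libraries in 14 groups, the empty vector being split by strand profile into replicates 1 and 2 and replicates 3 and 4. Genes were kept by filterByExpr (14220), libraries scaled by TMM, p-values two-sided and adjusted by Benjamini-Hochberg over all genes tested, and calls made at an adjusted p under 0.05. Values after ± are standard errors of log2 fold changes, n = 2 libraries per group. Counting intervals (95%) and floors (3 counts) cover counting error only. Libraries of a pair differed beyond sampling noise, and unevenly. The chi-square per degree of freedom, 1 under sampling alone, was 1.18 for delIDR1 and 4.83 for DBDmut. It was 1.86 for WT, 2.91 for vector replicates 1 and 2 and 2.76 for CBR.

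The members and the 36 gene lists were chosen with earlier results of these data known. Named genes were the 12 largest rises and falls (average log2 CPM of at least 1, no overlap of libraries, no uncharacterised symbols), up to 4 called members per list by smallest p, ARID1A, ARID1B, called BAF subunits and 11 genes of earlier results. Of these, the report describes a selection, and list members it calls named after their values were seen lie outside the rule. Genes for promoters were chosen by their motif match and size of change. Alternatives were unstranded counts, RLE factors, no filter, a higher filter, the vector as 1 group, fewer libraries, a replicate block, DESeq2 1.42.0, leaving out libraries and, chosen after seeing the data, library totals. Promoter searches used Python 3.11.15 and pandas 2.3.3, and figures matplotlib 3.10.9.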

Additional observations from a re-analysis of the deposited data

How the results depend on the processing

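Of the 16 counts the comparisons rest on, 219 values under alternatives stayed within 1.5 times of the value given, and 21 did not. With genes of an average log2 CPM of at least 1, the counts at least 2-fold were 208 higher and 304 lower for delIDR1 against DBDmut, 176 higher and 347 lower for delIDR1 against WT, 3 higher and 131 lower for DBDmut against WT, 484 higher and 97 lower for delIDR1 against the vector, and 582 higher and 241 lower for DBDmut against the vector; 142 WT-raised and 207 WT-lowered genes were higher in delIDR1 cells than in DBDmut cells. Fewer genes are tested there. With the 4 vector libraries as 1 group, DBDmut against WT gave 11 higher and DBDmut against the vector 241 lower. There 112 WT-lowered genes were higher in delIDR1 cells. Named genes that lost their call in that fit kept nearly the same log2 fold change between the mutants (EGR1 0.57, CYR61 -0.88, IFIT1 -0.59), while their adjusted p rose. The estimate of spread is shared by all groups, and the 4 vector libraries differ in strand profile. The WT-raised and WT-lowered genes were chosen anew under each alternative, so their counts are not shares of the 1427 and 552 genes. With library totals in place of TMM, chosen after seeing the data, delIDR1 against DBDmut gave 5730 higher, 2906 lower and 358 lower at least 2-fold, the share of calls that were higher was 66.4% against 46.0%, and delIDR1 against WT gave 767 higher. DESeq2 gave 14 higher for DBDmut against WT and 9 WT-lowered genes lower in delIDR1 cells. The cause was not tested for the vector, library total and DESeq2 values.

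Leaving out any 1 of the 4 libraries moved none of the 16 counts by over 1.5 times. Replicate numbers did not pair the libraries (r of deviations -0.014 to 0.061 over 10 pairs of groups), and with a replicate block over the 10 libraries of the strand profile 4524 genes were higher and 4350 lower. Of values for named genes under alternatives, 2293 kept their direction and side of the threshold, 50 no longer passed, 5 newly passed and 2 turned: SMARCD1 (0.0249) and ARID1B (0.0635) with library totals. Of list counts, 883 stayed within 1.5 times and 125 did not. Genes under 1 CPM rest on few reads, which limits the fold changes of CACNG4, CDH1 and other rare transcripts.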

Other observations

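Levels in cells expressing the CBR truncation mutant were looked up after those of delIDR1 and DBDmut were known, and were not tested. RRM2, a subunit of ribonucleotide reductase, had 71.5 and 75.7 CPM in CBR cells, beside 71.8 and 72.9 CPM in delIDR1 cells and 228 and 229 CPM in DBDmut cells. ITGA5, an integrin subunit, had 34.8 and 34.9 CPM in CBR cells, 31.8 and 34.9 CPM in delIDR1 cells and 12.1 and 11.5 CPM in DBDmut cells. LAMB1, a laminin chain, had 8.10 and 7.97 CPM in CBR cells, 24.4 and 26.7 CPM in delIDR1 cells and 147 and 160.4 CPM in DBDmut cells.

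CBR cells lay outside the range of both mutants at LAMB1 and at other genes, of which 3 are given here. MMP2, a matrix protease, had 0.132 and 0.0932 CPM in CBR cells, below the 3.54 and 2.92 CPM in delIDR1 cells and the 1.01 and 1.01 CPM in DBDmut cells. ELN, elastin, had 24.3 and 20.7 CPM in CBR cells, above the 10.5 and 9.97 CPM in delIDR1 cells and the 4.42 and 3.92 CPM in DBDmut cells. ASNS, asparagine synthetase, had 268.7 and 272.3 CPM in CBR cells, below the 423 and 427 CPM in delIDR1 cells and the 290.5 and 299.98 CPM in DBDmut cells.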
